A study of Mus musculus with 6 samples.

Results

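Broad unmethylated valleys are stretches of several kilobases in which most CpGs that the assay reads are unmethylated. They were chosen here from the measured levels in mouse kidney: autosomal windows of 1 kb were kept if they held at least 3 CpG sites covered 10 or more times in all 6 libraries, had a median site level under 5%, and lay in a run of 4 or more adjoining windows of that kind. The rule found 500 windows of 89813, in 119 runs, each called a valley below. The other 18914 autosomal windows under 5%, in runs of 1 to 3 windows, are called narrow runs. Because the low level itself chose the members, it is given as a description. Differences between treatments were not used as such, but the level was a mean over all 6 libraries. A window with a large gain in 1 group could thus be left out, which limits the gains that members can show.

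Reduced representation bisulfite libraries came from DNA of cortex and outer medulla of kidneys of male wild-type C57BL/6J mice, with 2 in each of 3 groups. UUO 5AZA kidneys had been obstructed for 7 days by cutting the left ureter between ligatures (unilateral ureteral obstruction, a model of renal fibrosis) in mice given 5AZA, the labels' name for a drug, intraperitoneally at a daily 1 mg/kg. UUO saline kidneys had the same obstruction for 7 days with saline injections. Of the sham kidneys, sham 1 had the operation without ligation as the control for 7 days of obstruction, whereas sham 2 served an ischemia/reperfusion experiment by its label, and its name gives 48 hours. The labels do not say how many mice gave each library or that the libraries of a group came from separate mice, so p-values measure the spread between these libraries. Tissue of cortex and outer medulla holds many cell types, and a change in their mixture cannot be told apart from a change within cells. RNA was not analysed here, so the labelled tissue could not be checked against expressed markers.

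In mammals, cytosine methylation occurs mostly at CpG, and most of the genome's CpGs are methylated, while CpG islands at gene starts are usually kept free of it. Some of these islands lie inside much wider unmethylated tracts, known as methylation valleys or canyons, which are best known around genes for developmental transcription factors and signalling molecules. Azanucleoside drugs trap DNA methyltransferases and lower methylation in dividing cells; the labels do not spell out which compound 5AZA is.

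The assay cuts DNA with MspI at CCGG and reads short fragments, and CpGs inside and outside CCGG stood at different levels in valleys. Valley promoters are therefore shown first as sequence. RefSeq promoters of 300 bases, from 250 before to 50 after the annotated start, were placed on the deposited mm9 positions by the spacing of their CpGs. Of 32851 promoters for 27025 gene symbols, 9482 on autosomes (8385 symbols) were placed at exactly 1 position and used. The next 5 promoters lie in valleys and were chosen, after their values were seen, as familiar genes with measured sites. Not every printed CpG or CCGG was measured. They are printed 5′ to 3′ on the strand of the gene, with the CCGG of MspI in capitals. Coordinates are those of RefSeq on GRCm38.p6.
Foxo3, chr10:42276646-42276945, minus strand: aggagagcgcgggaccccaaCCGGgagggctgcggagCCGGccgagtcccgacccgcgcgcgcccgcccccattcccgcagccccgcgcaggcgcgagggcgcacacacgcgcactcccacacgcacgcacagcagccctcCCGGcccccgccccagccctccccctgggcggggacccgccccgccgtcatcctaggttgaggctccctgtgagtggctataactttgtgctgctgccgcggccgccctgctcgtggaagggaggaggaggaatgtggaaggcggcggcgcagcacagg
Igf1r, chr7:67952007-67952306, plus strand: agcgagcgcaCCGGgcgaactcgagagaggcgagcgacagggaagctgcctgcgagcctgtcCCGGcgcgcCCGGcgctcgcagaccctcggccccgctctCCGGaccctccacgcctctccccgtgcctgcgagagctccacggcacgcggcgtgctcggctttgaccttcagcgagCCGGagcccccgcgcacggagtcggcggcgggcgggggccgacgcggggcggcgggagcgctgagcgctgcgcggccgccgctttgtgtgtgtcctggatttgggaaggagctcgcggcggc
Sall1, chr8:89043463-89043762, minus strand: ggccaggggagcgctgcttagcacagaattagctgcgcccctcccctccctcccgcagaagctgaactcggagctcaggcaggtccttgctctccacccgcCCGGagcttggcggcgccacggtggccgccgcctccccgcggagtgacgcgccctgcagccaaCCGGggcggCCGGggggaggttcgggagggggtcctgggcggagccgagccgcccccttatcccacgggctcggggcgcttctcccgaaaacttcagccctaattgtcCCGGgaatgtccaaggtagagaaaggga
Tgfb1, chr7:25686752-25687051, plus strand: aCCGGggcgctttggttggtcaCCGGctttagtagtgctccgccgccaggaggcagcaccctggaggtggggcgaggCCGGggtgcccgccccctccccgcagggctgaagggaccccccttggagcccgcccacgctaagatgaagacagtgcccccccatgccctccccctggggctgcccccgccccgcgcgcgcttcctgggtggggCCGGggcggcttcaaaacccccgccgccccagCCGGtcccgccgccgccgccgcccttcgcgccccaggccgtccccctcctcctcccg
Bbc3, chr7:16310181-16310480, plus strand: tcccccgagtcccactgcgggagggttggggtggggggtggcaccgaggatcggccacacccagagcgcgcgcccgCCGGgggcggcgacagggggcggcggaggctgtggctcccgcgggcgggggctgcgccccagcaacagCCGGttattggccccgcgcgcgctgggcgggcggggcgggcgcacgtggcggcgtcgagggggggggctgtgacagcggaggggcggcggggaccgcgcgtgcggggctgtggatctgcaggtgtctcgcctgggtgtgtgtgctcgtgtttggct

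Foxo3 encodes a forkhead transcription factor of stress and growth-factor responses. Its printed promoter holds 35 CpGs, of which 29 were measured in all 6 libraries. The 3 measured CpGs inside CCGG, at positions 22, 39 and 143 from the 5′ end, had mean levels of 72.5%, 76.7% and 52.8%. The other 26 measured CpGs lay between 0% and 16.6%. In Sall1, which encodes a zinc-finger factor needed for kidney development, the 4 CCGG sites stood at 61.4% to 71.8%, and the 19 other CpGs at 0.730% to 5.66%. The same split was seen in the promoter of Igf1r, the receptor for insulin-like growth factor 1, measured at 29 of 48 CpGs. There, 4 of 5 CCGG sites were measured, at 63.2% to 77.0%, and 25 others were at 0% to 6.66%. It was also seen in Bbc3, which encodes the pro-apoptotic protein PUMA (2 CCGG sites at 66.8% and 68.5% and 26 others at 0.505% to 4.21%). Tgfb1, the gene of the fibrogenic ligand TGF-β1, was measured at only 10 of 30 CpGs, with 12 to 84 reads per site and library. Of its 5 CCGG sites 2 were measured, at 65.6% and 82.5%, and the 8 other measured CpGs were at 0% to 4.19%.

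**Figure D1:**
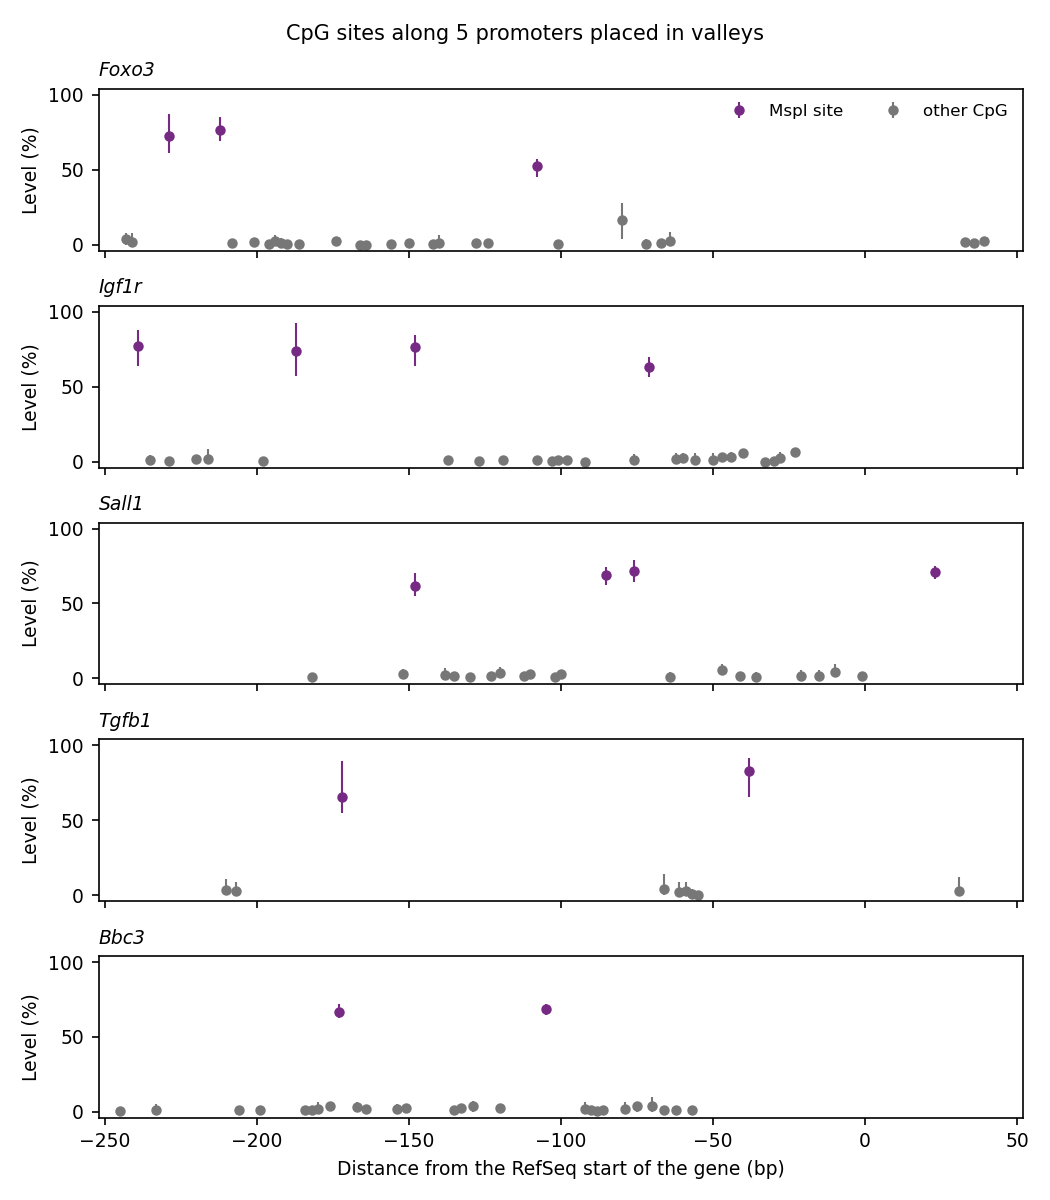
Methylation level (%, mean over 6 libraries, bars from the lowest to the highest library) of each measured CpG against its distance from the RefSeq start (bp) in 5 promoters placed in valleys. Purple points are CpGs inside an MspI site and grey points are other CpGs; the MspI sites of Sall1 sit at 61.4% to 71.8% and its other CpGs at or under 5.66%.

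Across all 106 promoters placed in valleys, 203 of 204 measured CCGG sites had a mean level of 30% or more, against 3 of 1032 other CpGs. CCGG sites in these promoters averaged 72.4% and 72.3% in UUO 5AZA, 73.1% and 74.8% in UUO saline, and 72.3% and 68.9% in sham. The other CpGs averaged 2.34% and 2.25% in UUO 5AZA, 2.29% and 2.54% in UUO saline, and 2.13% and 1.04% in sham. Sham 2 was the lowest library in both classes. Promoters in narrow runs had the same division, with 16776 of 16793 CCGG sites and 136 of 87740 other CpGs at 30% or more. Per the labels' protocols, the cut ends were filled in with methylated dCTP, and a filled-in cytosine and a methylated genomic cytosine at the cut cannot be told apart in these counts. CCGG, a palindrome that reads alike on both strands, occurred in 105 of the 106 valley promoters (99.1%), against 99.0% of the 8436 promoters in narrow runs and 52.8% of all 32851 promoters of the same length. Placement needed measured CpGs and at least 8 CpGs in the promoter, with a median of 28 CpGs in valley promoters and 27 in those of narrow runs, against 7 in all promoters, so nothing is read from the gap to all promoters.

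**Figure D2:**
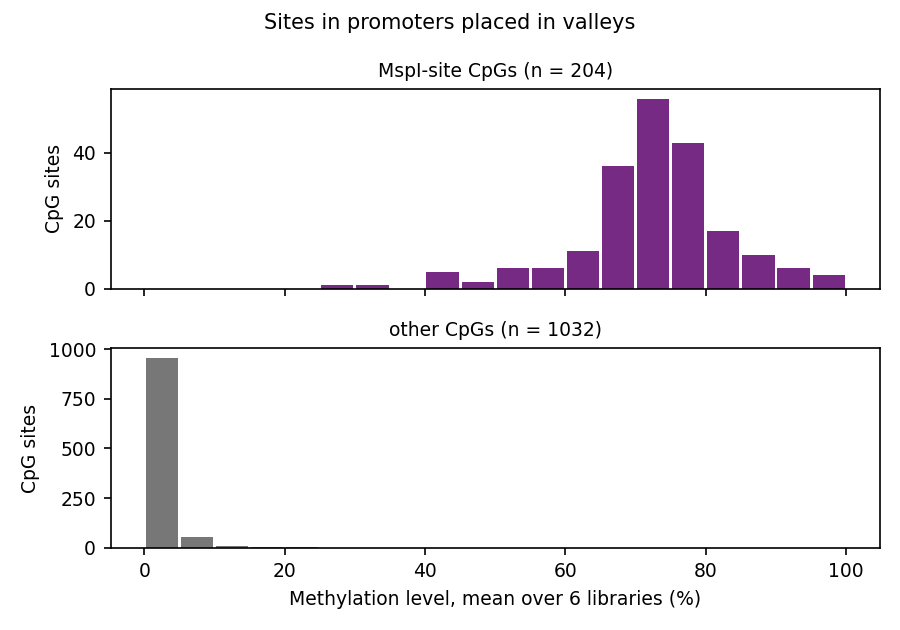
Number of CpG sites in each 5-point class of methylation level (%, mean over 6 libraries) in promoters placed in valleys, for 204 CpGs inside MspI sites (upper panel) and 1032 other CpGs (lower panel, own scale). The MspI sites centre on 70% to 75%, and nearly all other CpGs lie under 5%.

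Exceptions to this division fell in 3 promoters, and they are named here because of their values. In Qk, the gene of the RNA-binding protein Quaking, 2 CpGs outside CCGG at mm9 chr17 positions 10512246 and 10512249 stood at 37.9% and 56.5%. In Gm5432, a predicted gene that shares its valley with Trib2, a CpG outside CCGG at chr12 position 15823716 stood at 32.3%. In Mirc35hg, a microRNA host gene, a CCGG site at chr6 position 30124140 was at 28.8%, just under the 30% limit.

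Over whole valleys, 2573 of 13730 sites (18.7%) had a mean level of 30% or more, against 18.3% of sites in narrow runs. These high sites supplied 90.1% and 90.7% of the methylated reads in valleys in UUO 5AZA, 89.3% and 89.1% in UUO saline, and 90.9% and 94.2% in sham. Most of a valley's methylated reads thus came from the minority of sites at 30% or more. The sites under 30% are called low sites below, and levels of a valley are given over them unless the window median is named. The median window level was 1.90% in valleys, with a range of 0.513% to 4.98%, and 1.72% in narrow runs. The 5 members nearest the threshold had window levels of 4.98%, 4.93%, 4.91%, 4.86% and 4.75%. The 5 adjoining windows that just missed it had 5.02%, 5.08%, 5.20%, 5.56% and 6.64%, and 626 runs of exactly 3 windows (1878 windows) missed the length rule.

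Of the 119 valleys, 101 had 4 windows, 13 had 5, 4 had 6 and 1 had 7. A valley window held a median of 22 measured CpGs (quartiles 11.75 and 38), a narrow-run window 21, and an autosomal window of 5% or more 4. Chromosome 5 held 15 valleys, chromosomes 8 and 11 held 11 each, and chromosome 16 held 1. A promoter was placed in 70 valleys, for 86 gene symbols, and 49 valleys held none of the promoters that could be placed. Of the 86 starts, 57 lay nearer the middle of the valley than either end. A placed start fell in 18.2% of valley windows and in 36.3% of narrow-run windows. A longer run with 1 start has a lower share per window by its length alone, so this gap does not compare promoters per run.

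The genes in valleys are given by what they are known to do, a grouping made after their names were seen and not tested. Transcription factors and cofactors included Bcl11a, Nfil3, Junb, Jun, Klf13, Mxi1, Cux1, Foxo3, Sall1, Sox21, Gfi1, Myb, Fev, Casz1, Nr4a3, Lmo4 and Zfp423, together with Nr3c2, which encodes the mineralocorticoid receptor of the distal nephron. Chromatin proteins included Arid1a and Smarca2 of the SWI/SNF remodelling complexes, the bromodomain reader Brd2, the histone-mark readers Ing1, Ing2 and Phf13, and Hmgb1. Signalling genes included Jag1, Tgfb1, Ihh, Axin2, Igf1r, and the ephrin pathway members Efna5, Epha4 and Epha7. Genes of the cell cycle, growth arrest and cell death included Cdk6, Gadd45g, Trp73, Bbc3 and Hrk, and genes of general transcription included Tbp, Ubtf, Hexim1 and Ints6.

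Gene lists were set against the placed promoters, of which 86 of 8385 symbols (1.03%) lay in valleys. None of 10 placed Hox genes lay in a valley, 5 of them lying in narrow runs and 5 elsewhere. Of 88 placed members of developmental transcription factor families, 2 lay in valleys (Foxo3 and Sox21) and 73 in narrow runs. Of 15 placed nephron and kidney development factors, 1 (Sall1) lay in a valley and 13 in narrow runs. The valleys also held 2 of 12 placed fibrosis ligands and targets (Jag1 and Tgfb1), 1 of 6 leukocyte regulators (Gfi1) and 1 of 6 housekeeping genes (Tbp). Each list is small once placed, and the assay covers only CpG-rich fragments, so these counts describe what was measured and leave out genes whose promoters were not placed.

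The longest valley, of 7 windows at mm9 chr11:23976001-23983000, held the promoter of Bcl11a, a zinc-finger repressor best known from blood and brain development. Its 119 measured sites, 29 of them at 30% or more, rested on 5404 to 9795 covering reads per library. Its low sites were at 2.61% and 2.17% in UUO 5AZA, 2.26% and 2.76% in UUO saline, and 1.84% and 1.00% in sham. The UUO 5AZA and UUO saline libraries overlapped, and both UUO saline libraries lay above both sham libraries. Its high sites were at 73.6% and 73.9% in UUO 5AZA, 73.8% and 75.1% in UUO saline, and 73.2% and 68.0% in sham.

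The next valley by length, of 6 windows and 223 sites at chr11:120094001-120100000, held Bahcc1, which encodes a chromatin-binding protein with a BAH domain. There, low sites were at 1.79% and 2.13% in UUO 5AZA, 1.80% and 2.04% in UUO saline, and 1.76% and 0.921% in sham. Nfil3, at chr13:53073001-53079000, encodes a bZIP repressor of immune and circadian programmes. The low sites of this valley were at 2.10% and 1.74% in UUO 5AZA, 1.50% and 1.89% in UUO saline, and 1.31% and 1.04% in sham. In both valleys the UUO 5AZA and UUO saline libraries overlapped and both UUO saline libraries exceeded both sham libraries. Junb, at chr8:87500001-87505000, encodes a subunit of the AP-1 transcription factor. Its low sites were at 1.69% and 1.87% in UUO 5AZA, 2.12% and 1.76% in UUO saline, and 1.76% and 0.471% in sham, so that sham 2 stood alone below the other libraries. Ptma, at chr1:88421001-88426000, encodes prothymosin alpha, a small acidic nuclear protein. In Ptma the low sites stood at 2.00% and 1.49% in UUO 5AZA, 2.08% and 2.43% in UUO saline, and 1.68% and 1.09% in sham, with both UUO 5AZA libraries below both UUO saline libraries.

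The other 7 of the 12 longest valleys held Gm34157, Gm46091 (both predicted genes) or no placed promoter. Among them, the valley at chr15:96115001-96120000 had the most measured sites, 248 in 5 windows, with low sites at 1.84% and 1.98% in UUO 5AZA, 2.13% and 2.07% in UUO saline, and 1.65% and 0.736% in sham. The valley at chr12:81213001-81218000 had the opposite order between the obstructed groups, with 3.20% and 2.15% in UUO 5AZA, 2.08% and 1.72% in UUO saline, and 1.66% and 1.37% in sham. Sham 2 was the lowest library in all 12. It was also the most shallowly sequenced, with a median of 34 reads per low site in valleys against 50 to 73 in the other libraries.

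**Figure D3:**
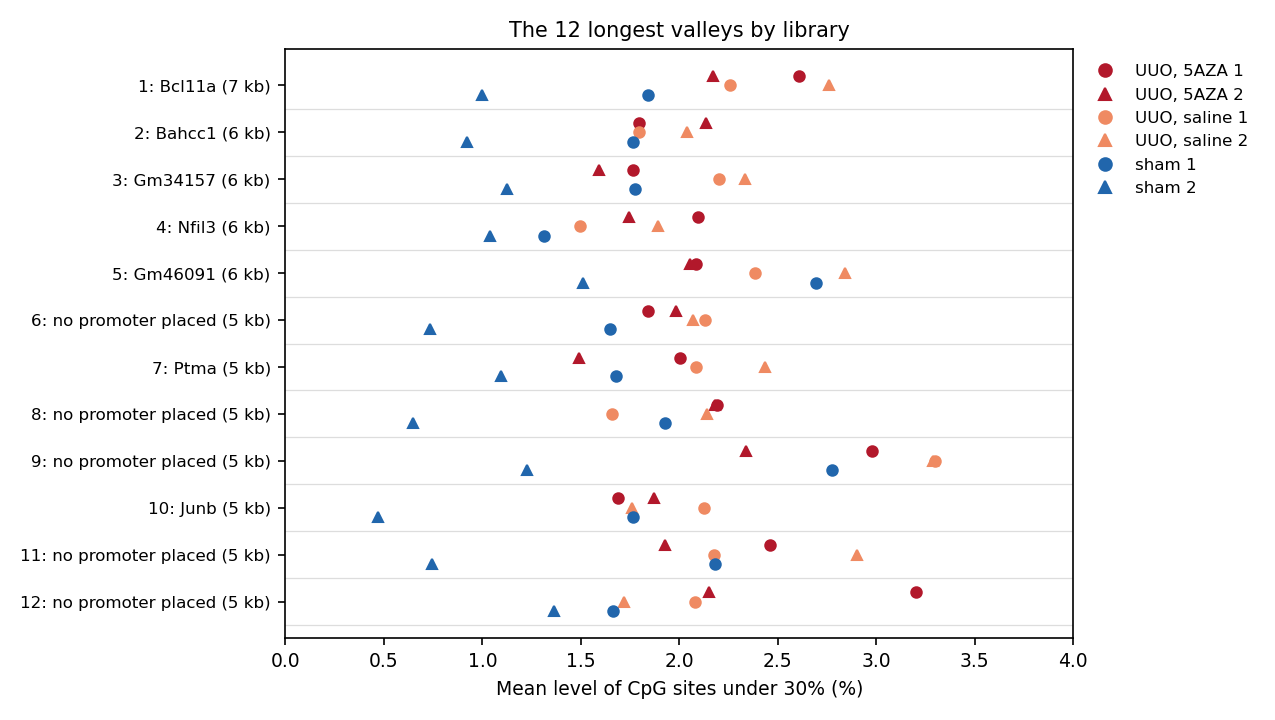
Mean level (%) of sites under 30% in each of the 12 longest valleys, listed by rank with the placed gene and length in kb, for both libraries of UUO 5AZA (red), UUO saline (orange) and sham (blue), with circles for replicate 1 and triangles for replicate 2. The sham 2 triangle is the leftmost point in all 12 valleys, from 0.471% at Junb to 1.51% at Gm46091.

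From the gene lists, 7 genes lay in valleys. Jag1 encodes a ligand of NOTCH receptors and is named in the series title. Its valley, chr2:136940001-136944000, had 122 measured sites on 5283 to 13128 reads per library. The low sites were at 1.90% and 1.41% in UUO 5AZA, 1.91% and 2.17% in UUO saline, and 1.57% and 0.694% in sham. The 2 libraries of UUO saline lay above all others, with means of 1.66% ± 0.346 in UUO 5AZA, 2.04% ± 0.181 in UUO saline and 1.13% ± 0.621 in sham (SD, n = 2 each). Its 23 high sites were at 74.1% and 74.8% in UUO 5AZA, 74.7% and 73.4% in UUO saline, and 71.8% and 70.2% in sham.

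Tgfb1 lay in a valley at chr7:26471001-26475000 with 62 sites. Its low sites were at 1.92% and 2.29% in UUO 5AZA, 1.63% and 2.56% in UUO saline, and 1.56% and 1.64% in sham, so that both UUO 5AZA libraries lay above both sham libraries, and UUO saline overlapped both other groups. Sall1, at chr8:91565001-91569000, had low sites at 2.50% and 2.48% in UUO 5AZA, 2.89% and 3.04% in UUO saline, and 2.37% and 1.12% in sham. Foxo3, at chr10:41995001-41999000, had 1.90% and 2.14% in UUO 5AZA, 2.35% and 2.73% in UUO saline, and 1.82% and 1.21% in sham. In both Sall1 and Foxo3 the UUO saline libraries were above all others. Tbp encodes the TATA-binding protein and went the other way between the obstructed groups, with 3.19% and 2.60% in UUO 5AZA, 1.36% and 1.92% in UUO saline, and 2.28% and 0.773% in sham. Gfi1, which encodes a transcriptional repressor that acts in blood-cell development, had 2.81% and 2.58% in UUO 5AZA, 2.89% and 2.85% in UUO saline, and 3.48% and 2.38% in sham. Sox21, a SOX-family repressor, had 2.67% and 2.15% in UUO 5AZA, 2.34% and 2.63% in UUO saline, and 2.83% and 1.07% in sham, with all groups overlapping.

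Obstruction was compared with sham first over all valleys together. The mean of window medians in valleys was 2.59% and 2.69% in UUO saline, against 2.13% and 0.819% in sham, or 2.64% ± 0.0724 and 1.47% ± 0.925 (SD, n = 2 each). The difference of 1.16 percentage points had an exact two-sided permutation p of 0.333, the smallest that 2 against 2 libraries allow. It came to 0.511 points without sham 2 and to 1.82 points without sham 1, so its size rested on which sham was used. A median of site fractions takes coarse steps at low depth, and the mean over low sites was 2.28% and 2.38% in UUO saline, against 1.99% and 1.15% in sham, a difference of 0.756 points (exact p = 0.333). Methylated over all reads in valleys was 16.3% and 16.8% in UUO saline, against 16.8% and 15.0% in sham, where sham 1 was the highest library and the difference of 0.665 points had an exact p of 1.0. Pooled over their reads, low sites in valleys were methylated in 2.17% (95% Wilson interval 2.14% to 2.20%) and 2.28% (2.25% to 2.32%) of reads in UUO saline, against 1.94% (1.90% to 1.97%) and 1.09% (1.06% to 1.13%) in sham. These intervals cover counting error only, since reads are not separate molecules, and incompletely converted cytosine and true methylation at such levels cannot be told apart from CpG counts alone.

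High sites were in the same order. They were at 74.1% and 74.3% in UUO saline, against 72.9% and 68.9% in sham, a difference of 3.33 points (exact p = 0.333), which was 1.33 points without sham 2 and 5.34 points without sham 1. Narrow runs had window medians of 2.44% and 2.46% in UUO saline, against 1.99% and 0.698% in sham. The level of valleys above narrow runs was 0.148 and 0.229 points in UUO saline, against 0.133 and 0.121 points in sham. The difference between these, 0.0615 points, had an exact p of 0.333 and was −0.00684 points when low sites replaced window medians. With 2 libraries in each group this test cannot go below 0.333, and the sign turned with the measure. It thus does not decide whether valleys differ from narrow runs between UUO saline and sham.

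Valley by valley, the low-site mean was higher in UUO saline than in sham in 112 of 119 valleys and lower in 7, against 88.4% of all 12837 unmethylated runs with a higher mean, most of which are shorter and hold fewer sites. The median difference was 0.824 points, with a range of −0.823 to 2.05. Both UUO saline libraries exceeded both sham libraries in 76 valleys and lay below both in 2, against backgrounds of 44.7% and 1.92% of all unmethylated runs. The pair of valleys with both UUO saline libraries below both sham libraries were that of Nr4a3, an orphan nuclear receptor gene, and one with no placed promoter at chr11:69222001-69226000. Nr4a3 was at 1.53% and 2.19% in UUO saline, against 2.21% and 2.29% in sham. The other was at 1.72% and 2.68% in UUO saline, against 3.15% and 2.90% in sham. The difference was highest, 2.05 points, at chr5:120884001-120889000 with no placed promoter, which had 3.92% and 3.46% in UUO saline, against 1.95% and 1.31% in sham. Sham 2 was the lowest library in 109 of the 119 valleys. Set against sham 1 alone, UUO saline was higher in 97 valleys and lower in 22, with a median difference of 0.382 points, and both UUO saline libraries exceeded sham 1 in 79.

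**Figure D4:**
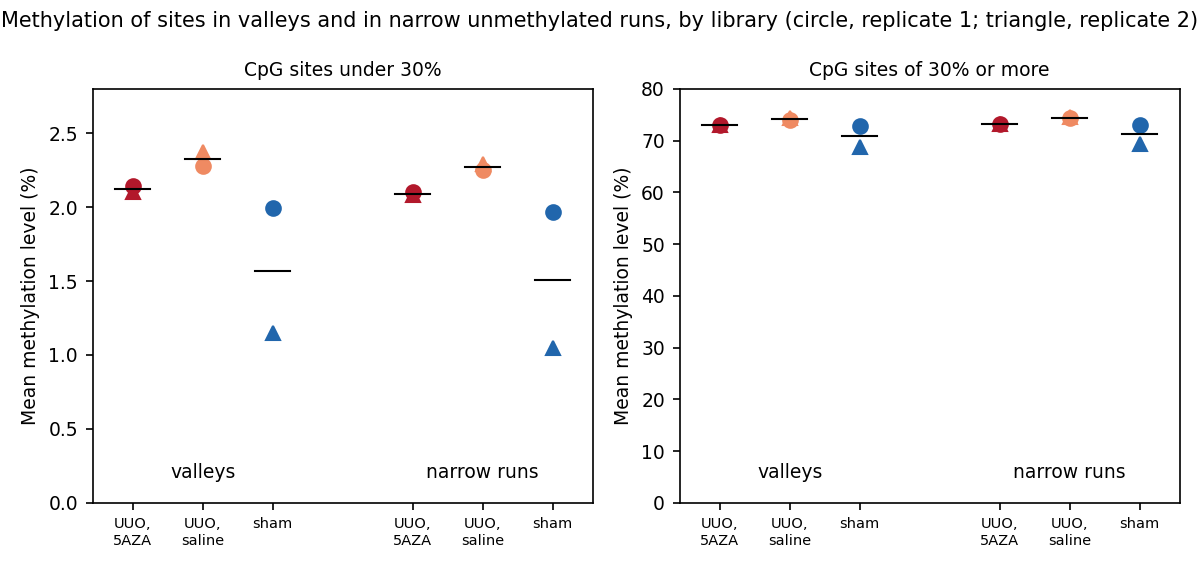
Mean methylation level (%) of sites under 30% (left) and of sites of 30% or more (right) in valleys and in narrow runs, by library. Black lines are means of 2 libraries, circles are replicate 1 and triangles replicate 2; sham 2 is lowest in each panel, at 1.15% of low sites and 68.9% of high sites in valleys.

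5AZA treatment was compared with saline in obstructed kidneys. The mean of window medians in valleys was 2.38% and 2.39% in UUO 5AZA, against 2.59% and 2.69% in UUO saline, or 2.39% ± 0.0129 and 2.64% ± 0.0724 (SD, n = 2 each), a difference of −0.252 points (exact p = 0.333). Over low sites the levels were 2.14% and 2.10% in UUO 5AZA, against 2.28% and 2.38% in UUO saline, a difference of −0.205 points (exact p = 0.333). Over high sites they were 73.1% and 73.0% in UUO 5AZA, against 74.1% and 74.3% in UUO saline, a difference of −1.16 points (exact p = 0.333). In each of these measures both UUO 5AZA libraries were below both UUO saline libraries. Methylated over all reads in valleys went the other way, at 16.6% and 17.5% in UUO 5AZA against 16.3% and 16.8% in UUO saline, a difference of 0.469 points (exact p = 0.667).

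Narrow runs had window medians of 2.17% and 2.15% in UUO 5AZA, against 2.44% and 2.46% in UUO saline. Valleys stood above narrow runs by 0.211 and 0.243 points in UUO 5AZA, against 0.148 and 0.229 points in UUO saline. The difference of 0.0384 points had an exact p of 0.667, and it was −0.0253 points with low sites and −0.00205 points without saline 1. Its sign was thus not stable, and no difference particular to valleys can be read from it. By valley, the low-site mean was lower in UUO 5AZA than in UUO saline in 90 of 119 and higher in 29, against 60.8% of all unmethylated runs with a lower mean. The median difference was −0.188 points, with a range of −1.23 to 1.26. Both UUO 5AZA libraries lay below both UUO saline libraries in 44 of 119 valleys and above both in 8, against 25.6% and 11.9% of all unmethylated runs. Most of those runs are shorter than valleys and hold fewer sites, so these shares do not compare like regions. The comparison of UUO 5AZA with UUO saline and that of UUO saline with sham share the UUO saline libraries.

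Among valleys with a placed promoter, the lowest difference belonged to Brd2 and the highest to Tbp. Brd2 had low sites at 1.55% and 1.83% in UUO 5AZA, 2.93% and 2.71% in UUO saline, and 1.52% and 1.03% in sham, with UUO saline above all other libraries. Jun, which encodes the c-JUN subunit of AP-1, was among the 8 valleys with both UUO 5AZA libraries above both UUO saline libraries, at 2.12% and 2.06% in UUO 5AZA and 1.71% and 1.42% in UUO saline, with 1.48% and 1.14% in sham. The lowest valley over all libraries was that of Qk, at 1.33% and 1.36% in UUO 5AZA, 1.45% and 1.41% in UUO saline, and 1.30% and 0.255% in sham. The highest was at chr14:80168001-80172000, with 153 sites and no placed promoter, at 4.26% and 4.21% in UUO 5AZA, 5.31% and 5.62% in UUO saline, and 4.19% and 2.84% in sham. It had the same order of groups as Brd2, with UUO saline above all other libraries, and the lowest difference of all valleys between UUO 5AZA and UUO saline, −1.23 points.

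Single windows were then tested on methylated and unmethylated read counts summed per window, with edgeR's quasi-likelihood test and Benjamini-Hochberg adjustment over all 89813 windows. No valley window of 500 passed an adjusted p of 0.05 between UUO saline and sham, where 0.0501% of all windows did (0.0445% higher and 0.00557% lower). None passed between UUO 5AZA and UUO saline, where 1.55% of all windows did, almost all of them lower (1.55%) and 0.00445% higher. The choice of members by all 6 libraries limits gains in advance. With members chosen only from the 2 libraries outside each comparison, 0 of 486 passed between UUO saline and sham. By the same choice, 0 of 554 passed between UUO 5AZA and UUO saline. At an unadjusted p under 0.05 there were 25 valley windows between UUO saline and sham (5.0%, against 10.4% of all windows) and 11 between UUO 5AZA and UUO saline (2.2%, against 23.2%). Narrow-run windows were near the valleys by the same edgeR test, at 5.31% between UUO saline and sham and 1.5% between UUO 5AZA and UUO saline. Of narrow-run windows, 0.0% and 0.00529% passed the adjusted p of 0.05 in these comparisons. The low shares were thus not particular to valleys. limma called 0 valley windows and 0.0% of all windows in each comparison. At an unadjusted p under 0.05 by limma there were 3 valley windows between UUO saline and sham, against 10.9% of all windows, and 2 between UUO 5AZA and UUO saline, against 20.5%. Fisher's exact test on reads pooled within groups, which ignores the spread between libraries, called 45 valley windows between UUO saline and sham (9.0%, against 9.65% of all windows) and 42 between UUO 5AZA and UUO saline (8.4%, against 26.0%). Counts were also summed over each whole valley without candidate fragment-end sites and fitted with all other windows, a choice made after seeing the data. That fit called 0 of 119 valleys and 0.0% of all 87164 features in each comparison. At an unadjusted p under 0.05 it had 2 valleys between UUO saline and sham, against 9.69% of all features, and 0 between UUO 5AZA and UUO saline, against 20.5%.

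By window medians, both UUO saline libraries were above both sham libraries in 204 valley windows (40.8%, against 28.8% of all windows) and below both in 17 (3.4%, against 9.91%). Both UUO 5AZA libraries were above both UUO saline libraries in 68 (13.6%, against 5.92%) and below both in 103 (20.6%, against 43.7%). The median edgeR log2 ratio of methylated to unmethylated reads was 0.10 for UUO saline over sham in valleys and 0.14 in all windows. For UUO 5AZA over UUO saline it was 0.0019 in valleys, with 253 windows positive and 247 negative, and −0.35 in all windows. Narrow runs were near valleys, with medians of 0.10 for UUO saline over sham and −8.4e-05 for UUO 5AZA over UUO saline. By window medians, both UUO saline libraries were above both sham libraries in 38.4% of narrow-run windows and below both in 2.24%. Both UUO 5AZA libraries were above both UUO saline libraries in 13.3% of them and below both in 21.1%.

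The windows with the smallest p in each direction are given next, and none of them passed. Both comparisons use the same UUO saline libraries. A window picked for high or low UUO saline counts in one comparison is thus likely to show the same in the other. Between UUO saline and sham, the smallest p belonged to the window chr11:108781001-108782000, which holds a start of Axin2, a WNT target gene and inhibitor of the pathway. Methylated reads made up 20.6% of 1910 and 20.4% of 1169 reads in UUO saline, against 15.0% of 1009 and 13.7% of 825 in sham (adjusted p = 0.151 by edgeR). In the same window UUO 5AZA had 16.0% of 976 and 17.3% of 1115 reads (adjusted p = 0.148 against UUO saline), so both other groups lay below UUO saline. Of its 23 sites, 4 were at 30% or more. Its low sites were at 1.76% and 3.29% in UUO 5AZA, 1.77% and 5.36% in UUO saline, and 1.64% and 1.38% in sham, with UUO 5AZA and UUO saline overlapping.

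A window at chr18:25913001-25914000, in a valley with no placed promoter, had the smallest adjusted p of the valley windows between UUO 5AZA and UUO saline, 0.0692 by edgeR. Methylated reads made up 18.5% of 1021 and 20.1% of 1485 in UUO 5AZA, against 28.2% of 733 and 24.4% of 993 in UUO saline, and 19.5% of 1305 and 19.6% of 622 in sham. UUO saline lay above both other groups (adjusted p = 0.23 against sham by edgeR). The window at chr18:25911001-25912000, in the same valley, was next to Axin2 in p between UUO saline and sham, at 20.2% and 18.0% in UUO saline against 14.8% and 14.4% in sham (adjusted p = 0.208 by edgeR). After the window at 25913001 came one of the Smarca2 valley, chr19:26680001-26681000, at 26.9% and 26.6% in UUO saline against 22.0% and 21.5% in sham (adjusted p = 0.259 by edgeR).

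In the lower direction between UUO saline and sham, a window of the Hivep2 valley at chr10:13685001-13686000 came first (adjusted p = 0.267 by edgeR). It had 6.32% of 1076 and 10.6% of 717 reads methylated in UUO saline, against 21.1% of 639 and 10.1% of 356 in sham, so that sham 1 alone stood apart. In the Tgfb1 valley, the window chr7:26474001-26475000 had 23.3% and 26.3% in UUO 5AZA, 14.4% and 21.9% in UUO saline, and 30.5% and 19.9% in sham. Its adjusted p was 0.399 for UUO saline against sham and 0.168 for UUO 5AZA against UUO saline by edgeR, and it was among the first 5 of both orders. Its low sites, at 2.83% and 2.15% in UUO 5AZA, 3.19% and 2.34% in UUO saline, and 2.01% and 1.92% in sham, did not follow that order.

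Between UUO 5AZA and UUO saline, the smallest p in the higher direction was that of a window in the Sox21 valley, chr14:118635001-118636000, with 20.7% of 2088 and 24.1% of 2068 reads methylated in UUO 5AZA, against 17.0% of 2568 and 17.1% of 2334 in UUO saline (adjusted p = 0.114 by edgeR). Its log2 ratio of 0.49 was −0.083 without candidate fragment-end sites, so its direction rested on those sites. The same was seen in the window of Brd2, chr17:34258001-34259000, with a log2 ratio of 0.42 and −0.16 without them, and in that of Bcl11a, chr11:23979001-23980000, with 0.42 and −0.22. In the lower direction, the window chr7:16894001-16895000, which holds a start of Bbc3, had 15.9% of 1156 and 14.1% of 1085 reads methylated in UUO 5AZA, against 19.5% of 1561 and 17.4% of 1433 in UUO saline (adjusted p = 0.198 by edgeR). Its low sites were at 3.91% and 1.88% in UUO 5AZA, 5.62% and 4.59% in UUO saline, and 2.63% and 0.499% in sham, so UUO saline was above all other libraries.

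The ends of valleys were mostly not seen. Of 238 ends, 192 (80.7%) adjoined a window with no site covered 10 times in all libraries, 13 (5.46%) one with 1 or 2 such sites, and 33 (13.9%) a measured window of 5% or more. The true length of a valley is therefore not given by its run in most cases. Where the adjoining window was measured its level ranged from 5.02% to 95.0%, with a median of 30.5%. A measured adjoining window under 5% would have joined the run, so a step up at the end is set by the rule. Foxo3 had 23 sites at 5.20% on one side and 3 sites at 95.0% on the other. The side at 95.0% had window medians of 92.3% and 94.2% in UUO 5AZA, 95.2% and 94.7% in UUO saline, and 98.4% and 93.5% in sham. The window beside the Axin2 valley, with 3 sites, was at 94.8%, and Gadd45g, a stress-inducible growth arrest gene, had 90.3% on one side and 5.02% on the other.

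The 33 adjoining windows averaged 37.3% and 37.7% in UUO 5AZA, 40.3% and 39.1% in UUO saline, and 38.2% and 31.3% in sham. UUO 5AZA was below UUO saline by 2.18 points, written as −2.18 (exact p = 0.333), and UUO saline was above sham by 4.95 points (p = 0.333), or by 1.52 points without sham 2 and 8.38 points without sham 1. No adjoining window was called in either comparison (edgeR), where 1.55% of all windows were called between UUO 5AZA and UUO saline and 0.0501% between UUO saline and sham. At an unadjusted p under 0.05 there were 2 of 33 (6.06%, against 23.2% of all windows) between UUO 5AZA and UUO saline, and 5 of 33 (15.2%, against 10.4%) between UUO saline and sham. Further out, the median level of measured windows followed no steady course, at 15.4%, 26.7%, 73.9%, 48.7%, 68.5%, 45.8% and 30.9% in the second to the eighth window, each from 21 to 35 windows.

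**Figure D5:**
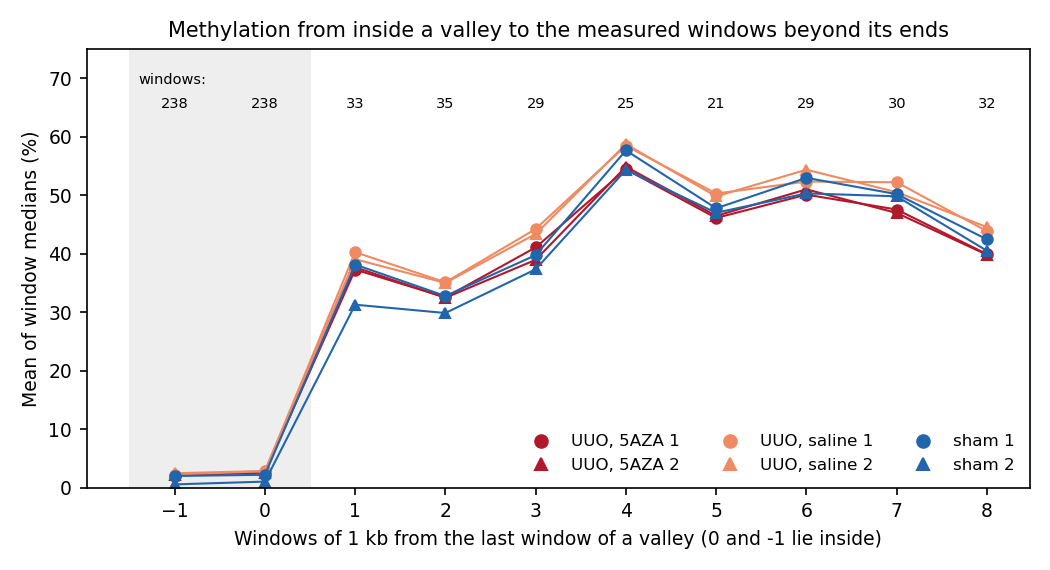
Mean of window medians (%) by library against the number of 1 kb windows from the last window of a valley, where 0 and −1 (grey) lie inside and 1 to 8 outside. Colours and symbols are as in the legend, and numbers above are windows measured, from 238 inside to 21 to 35 outside; levels step up from under 3% inside to between 31.3% and 40.3% in the first measured window.

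The total of covering reads at CpG sites was 57853745 and 64539660 in UUO 5AZA, 76730132 and 65733691 in UUO saline, and 68501854 and 37728517 in sham. Sham 2 thus had the fewest reads, and it differs from sham 1 in its model and time, so depth, batch and surgery cannot be told apart as sources of its lower levels.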

How the data were processed

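Per the submitters' processing notes, reads were aligned with Bowtie to mm9, with no version named. The step from alignment to methylation calls is not given in the sources used here. Each of the 6 deposited files lists CpG sites with the authors' counts of all reads and of methylated ones, and the deposited fraction equals their ratio. Files hold no header, so the columns' meaning was read from the values. Of 2134823 sites, the 943307 with 10 or more reads in every library were grouped in windows of 1 kb. A site's level is the mean of its 6 fractions, and a window's level is the median of its sites. Libraries were grouped by the treatment label.

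Counts per window went into edgeR's quasi-likelihood test (edgeR 4.0.16, R 4.3.3, 1 intercept per library, common dispersion, all 6 libraries). A run of it on simulated data used added changes larger than the mean differences over valleys given above. That run thus does not show that differences of such a size would be found. Single values per library were compared by exact two-sided permutation tests. Alternatives were coverage of 5 or 20, other thresholds, run lengths and window sizes, removal of candidate fragment ends or of the deepest 0.1% of sites, limma 3.58.1 on log2 ratios with 1 added to each count, Fisher's exact test, a block by replicate number and removal of each library. A candidate fragment end is a site whose coverage equals, to within 5%, that of its neighbours added up, each within 220 bp, or a site of 30% or more in a window of 10 or more sites whose median is under 5%. Promoters with at least 8 CpGs were placed where all measured CpGs matched their spacing at exactly 1 position of their chromosome. This gives no conversion of coordinates between builds.

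Named items were the 12 longest valleys, valley windows called or else the 5 with the smallest p in each direction, valleys of listed genes, and windows next to the threshold; of these the text gives the ones that differ most and the rest by count. The members and lists were chosen with earlier results of these data known. Other steps used Python 3.11.15 with scipy 1.17.1, pandas 2.3.3 and numpy 2.4.6.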

Additional observations from a re-analysis of the deposited data

How the results depend on the processing

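Of 119 values recomputed under alternatives for the main comparisons, in valleys and adjoining windows, 111 kept their direction or their number of calls. No level could pass a p of 0.05 in the permutation test with so few libraries. Some fits called no window of the series, so their lack of calls in valleys was fixed. This count therefore does not measure how firm the results are. The number of valley windows called moved with Fisher's exact test on pooled reads (45 between UUO saline and sham, 42 between UUO 5AZA and UUO saline, or 9.0% and 8.4%, against 9.65% and 26.0% of all windows). It was also 9, against 0 with the same 4 libraries unblocked, in a fit of UUO 5AZA and UUO saline with the replicate number as a block, or 1.8% of valley windows against 7.63% of all windows. Unblocked, the fit of these 4 libraries called 0.193% of all windows, with a common dispersion of 0.00476 against 0.00224 with the block. Deviations of same-numbered UUO 5AZA and UUO saline libraries had a correlation of −0.0153 over 16930 windows of intermediate level, none of them in valleys. With 2 libraries in each group, both pairs give this same value. The numbers were not taken to pair libraries, a choice that this value does not test in valleys. Sham and UUO saline share numbers in listing order only. The valley level between UUO 5AZA and UUO saline reversed to 0.469 points as methylated over all reads. The level of valleys above narrow runs reversed between UUO saline and sham to −0.00684 points with low sites. Between UUO 5AZA and UUO saline it reversed to −0.0404 points with coverage of 5, −0.00205 points without saline 1 and −0.0253 points with low sites. Without each library in turn, UUO saline minus sham ranged from 0.511 to 1.82 points for valley windows, 1.33 to 5.34 for high sites, 1.52 to 8.38 for adjoining windows and 0.0210 to 0.102 for valleys above narrow runs. UUO 5AZA minus UUO saline ranged from −0.303 to −0.201, −1.27 to −1.04, −2.78 to −1.57 and −0.00205 to 0.0789 points in the same order. Without candidate fragment ends, log2 ratios reversed in the windows of Myb (chr10:20881001, 0.55), Sox21 (−0.083), Brd2 (−0.16), Bcl11a (−0.22) and Trib2 (chr12:15823001, 0.046), and with coverage of 5 in that of Fev (chr1:74929001, 0.16). The cause of these changes was not tested. Members numbered 509 with coverage of 5 (458 shared) and 431 with 20 (368 shared), 2378 in runs of 3 or more, 31 in runs of 6 or more, 826 under 10%, 300 under 3%, and 25 in 500 bp windows. With the mean of sites as window level no window qualified, so no value could be computed. With about 50 reads per site, single sites at such low levels cannot be ordered between libraries.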
